A study of Mus musculus with 6 samples.

Results

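The genes examined here were 10 components of the MHC class I antigen presentation machinery: the classical heavy chains *H2-K1* and *H2-D1*, the light chain *B2m*, the peptide transporter subunits *Tap1* and *Tap2*, the loading chaperone *Tapbp*, the immunoproteasome subunits *Psmb8*, *Psmb9* and *Psmb10*, and the class I transactivator *Nlrc5*. They were chosen by name, and their probes were found through the RefSeq accessions carried by the arrays. All 10 were among the 22907 genes that could be named on the array and among the 14894 genes tested, and the probe used for each was well above background on all 5 arrays that carry this detection call.

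Total RNA was measured on 6 single-colour Agilent arrays from OS3 cells, a glial line from the brain of newborn male C3H/HeN mice (C3H in the labels) that was immortalised with SV40. WT cells carried an empty vector, and IG27 cells carried a plasmid encoding histone *H3f3a* with the K27M substitution on top of their own intact histone genes. Each group had 3 dishes, cultured for 2 days in the same insulin-containing medium with fetal bovine serum. Clones were established by drug selection after transfection. Which clone or clones were hybridised is not given in the sources used here, so the comparison is of IG27 dishes with WT dishes, and p-values measure the spread between dishes of these lines. *H3f3a* itself, whose probe cannot be assumed to separate plasmid from endogenous transcript, was -0.26 ± 0.08 on the log2 scale (IG27 minus WT, SE, n = 3 per group, limma adjusted p = 0.0237). Between 58.8% and 61.2% of probes were well above background on the 5 arrays with a detection call, and arrays of the same group correlated at 0.994 to 0.997 across genes.

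Class I molecules display peptides from inside the cell to cytotoxic T cells. Proteasomes cut cytosolic proteins into peptides, and in cells exposed to interferon the catalytic subunits are exchanged for those of the immunoproteasome, Psmb8, Psmb9 and Psmb10. The TAP transporter moves the peptides into the endoplasmic reticulum, where tapasin (Tapbp) holds an empty heavy chain paired with beta-2-microglobulin (B2m) next to it until a peptide is bound. Nlrc5 assembles with the RFX, NF-Y and CREB/ATF factors on the promoters of class I heavy-chain genes and of some other genes of the pathway, and raises their transcription. Normal brain cells are known for low class I levels that interferon can raise.

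Promoter stretches of 5 members are shown because the class I genes are textbook examples of a shared promoter layout. The stretches come from RefSeq on GRCm38.p6, a C57BL/6 genome, read 5′ to 3′ on the strand of the gene named (of *Tap1* in the last), and end before the annotated start of transcription, for *H2-K1* the more upstream of its 2 starts. Capitals mark the motifs searched: the kB motif GGGNNTTCC in *H2-K1* and *H2-D1*, the interferon-response core GAAANNGAA in *B2m*, the GC box GGGCGG in the *Tap1* and *Psmb9* stretch, and in each stretch the CRE core TGACG and the NF-Y motif CCAAT. Both strands were searched, so ATTGG stands for CCAAT and CCGCCC for GGGCGG.
H2-K1, chr17:34000349-34000468, minus strand: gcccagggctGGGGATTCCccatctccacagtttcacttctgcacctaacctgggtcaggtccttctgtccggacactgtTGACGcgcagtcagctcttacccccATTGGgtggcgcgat
H2-D1, chr17:35262913-35263055, plus strand: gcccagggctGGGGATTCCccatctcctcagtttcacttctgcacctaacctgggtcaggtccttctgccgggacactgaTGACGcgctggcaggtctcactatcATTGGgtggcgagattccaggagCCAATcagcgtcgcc
B2m, chr2:122147538-122147653, plus strand: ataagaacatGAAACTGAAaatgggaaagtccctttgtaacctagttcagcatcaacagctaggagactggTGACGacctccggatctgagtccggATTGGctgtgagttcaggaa
Tap1 and Psmb9, chr17:34187331-34187555, plus strand: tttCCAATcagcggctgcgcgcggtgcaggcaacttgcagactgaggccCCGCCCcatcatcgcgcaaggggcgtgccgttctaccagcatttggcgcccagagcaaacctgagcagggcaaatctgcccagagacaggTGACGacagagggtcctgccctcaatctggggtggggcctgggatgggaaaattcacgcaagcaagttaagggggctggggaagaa

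*H2-K1*, *H2-D1* and *B2m* all held TGACG followed after 20 bases by ATTGG, an arrangement noticed in these sequences and then counted: 0.094% of the 32851 promoter windows held the pair at this spacing on either strand. From the kB motif to the end of ATTGG, the *H2-K1* and *H2-D1* stretches were identical at 89 of 100 bases. *Tap1* and *Psmb9* are transcribed away from each other, with 225 bases between their annotated starts, so the stretch printed for them lies upstream of both. A promoter window, from 250 bases before to 50 after the start, was on hand for 8 of the 10 members, the exceptions being *Tap2* and *Nlrc5*. The kB motif was found in the windows of *H2-K1* and *H2-D1* (5.82% of all windows hold it). The interferon-response core was searched only as GAAANNGAA and was found in *B2m* alone of the 8 (8.56%). The printed *H2-K1* and *H2-D1* stretches hold tttcacttc, which GAAANNGAA does not match on either strand. Other forms of an interferon-response element were not searched, so a window without GAAANNGAA may still hold one. The GAS motif TTCNNNGAA was found in *Psmb8* alone (8.30%), and the GC box in *Tap1*, *Tapbp* and *Psmb9* (35.7%). TGACG was found in 5 of the 8 (20.8% of all windows) and CCAAT in 6 (37.4%). The full CRE, TGACGTCA, was in none (1.79%), and the *Psmb10* window held none of the motifs. TGACG also lies within the full CRE. These are matches of letters in short windows, not measured binding.

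**Figure D1:**
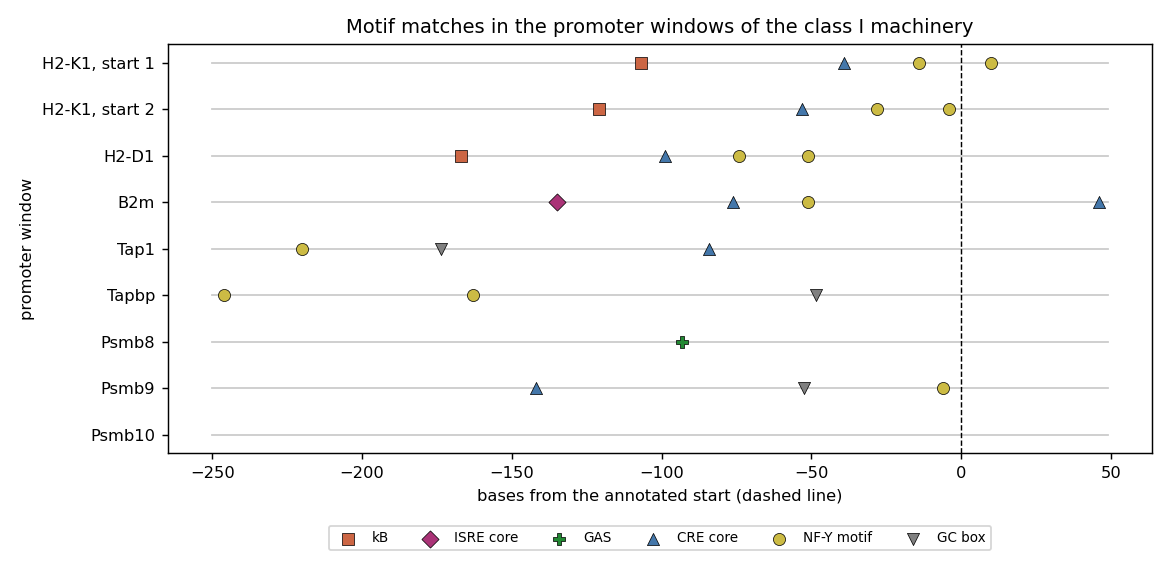
Positions of the motif matches in the promoter windows of the class I machinery; the horizontal axis is the distance in bases from the annotated start of transcription and each line is 1 window, with 2 for H2-K1, which has 2 annotated starts. The CRE core and NF-Y motif keep the same spacing in H2-K1, H2-D1 and B2m, and the Psmb10 window is empty.

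Across the machinery, 6 members rose in IG27 cells (*H2-K1*, *H2-D1*, *Tap2*, *Psmb8*, *Psmb9* and *Nlrc5*), 2 fell (*Tapbp* and *Psmb10*), and *B2m* and *Tap1* did not pass the test. A gene is counted as higher or lower where its adjusted p in the limma fit across all 14894 genes was under 0.05. IG27 and WT arrays differed at most genes by this rule: 70.5% of all tested genes passed, 30.5% as higher and 40.0% as lower. The 8 of 10 members that passed stand beside that background. The members' median log2 difference was 0.33, against -0.07 over all tested genes. Values of the 3 WT and 3 IG27 dishes did not overlap in 9 of the 10 members, as in 75.7% of all tested genes. A change of at least 2-fold was seen upwards in 3 members, *H2-K1*, *H2-D1* and *Psmb9*, where 11.4% of all genes passed with at least that rise. *H2-K1* and *H2-D1* are close paralogs whose probes may read each other's RNA, so they may not be separate results. None of the 10 passed with a fall of that size, which 11.7% of all genes did.

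**Figure D2:**
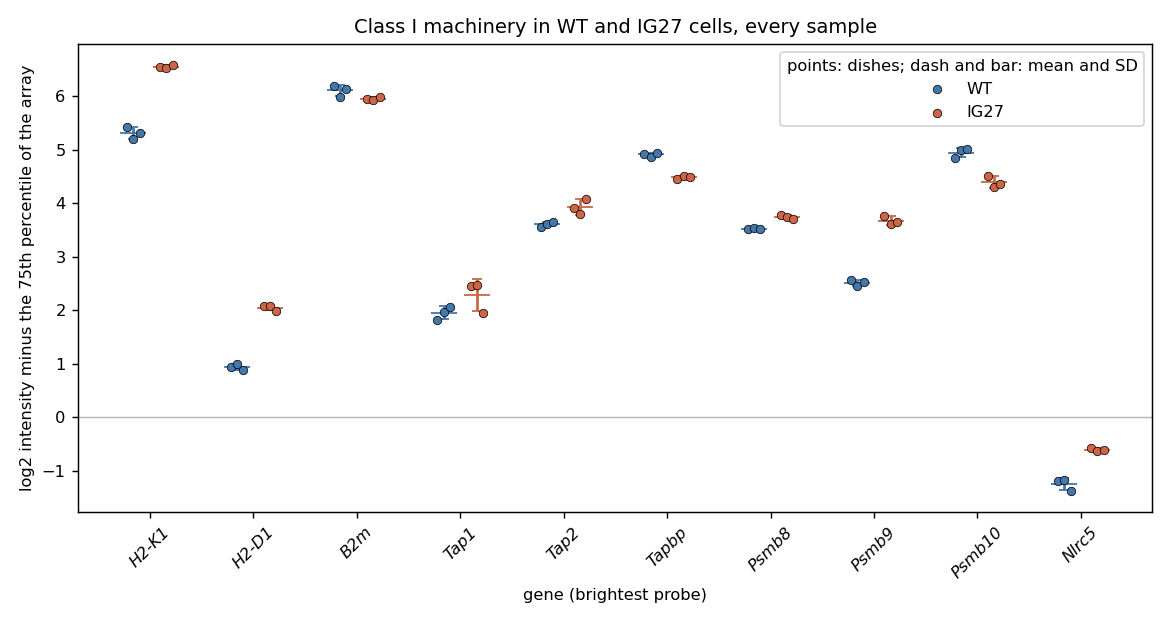
Log2 intensity of each member, relative to the 75th percentile of its array, in the 3 WT and 3 IG27 dishes; points are dishes, dashes are means and bars are SD. H2-K1, H2-D1 and Psmb9 stand more than 1 log2 unit apart between the groups, whereas Tap1 overlaps. Heights of different genes are not comparable, because each rests on its own probe.

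The classical heavy chains, which hold the peptide and are read by the T cell receptor, rose by similar amounts. *H2-K1* was 5.42, 5.20 and 5.30 in the WT dishes and 6.54, 6.52 and 6.58 in the IG27 dishes, in log2 units above the 75th percentile of the array. Every IG27 dish lay above every WT dish, with a gap of 1.10 between the groups. The difference was 1.24 ± 0.07 (SE, n = 3 per group, adjusted p = 1.13e-05), which is 2.36-fold. A further probe for *H2-K1* gave 1.22 ± 0.05. *H2-D1* was 0.93, 0.98 and 0.89 in WT and 2.07, 2.08 and 1.99 in IG27, again without overlap. Its difference was 1.11 ± 0.05 (adjusted p = 6.54e-06), or 2.16-fold, on a single probe.

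*B2m*, the light chain that every class I heavy chain needs to reach the surface, did not follow them. It was 6.19, 5.98 and 6.14 in WT and 5.95, 5.92 and 5.98 in IG27. WT dish 2 and IG27 dish 3 were nearly equal, 0.000109 apart. The difference was -0.15 ± 0.07 (95% interval -0.32 to 0.01, adjusted p = 0.0847), so a rise of the size seen for the heavy chains lay outside the interval. Without WT dish 2 the fall was called, at -0.21 (adjusted p = 0.0188).

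The transporter subunits moved little. *Tap2* was 3.56, 3.61 and 3.64 in WT and 3.90, 3.79 and 4.08 in IG27, all IG27 dishes above all WT dishes, and rose by 0.32 ± 0.08 (adjusted p = 0.0134), or 1.25-fold. With the row of the array on the slide as a block, which sets the IG27 dishes against WT dish 2 alone, the rise was 0.314 (adjusted p = 0.0854). *Tap1* was 1.82, 1.97 and 2.06 in WT and 2.45, 2.47 and 1.94 in IG27. IG27 dish 3 lay within the WT range and the other two IG27 dishes above it, so the difference of 0.34 ± 0.16 had an interval from -0.05 to 0.72 and was not called (adjusted p = 0.101). Without IG27 dish 3 it was 0.51 (adjusted p = 0.00539). A dimmer *Tap1* probe, in which dish 3 was the highest of the IG27 dishes, read -1.04, -0.88 and -0.89 in WT and -0.53, -0.40 and -0.18 in IG27. That probe rose by 0.57 ± 0.10, and in the fit over probes its adjusted p was 0.00283. A further *Tap2* probe was not well above background on any array.

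*Tapbp*, the tapasin that bridges the transporter and the heavy chain, fell. It was 4.92, 4.87 and 4.93 in WT and 4.45, 4.50 and 4.49 in IG27, with all WT dishes higher. The fall was -0.43 ± 0.05 (adjusted p = 2.49e-04), meaning 1.35-fold lower in IG27 cells. A dimmer probe designed on another RefSeq transcript of *Tapbp* showed no such fall: it read -0.72, -0.61 and -0.64 in WT and -0.64, -0.59 and -0.67 in IG27, a difference of 0.02 ± 0.05 (adjusted p = 0.709 in the fit over probes). The fall given for *Tapbp* belongs to its brightest probe, and the mean of both probes was -0.203.

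Of the 3 immunoproteasome subunits, *Psmb9* and *Psmb8* rose and *Psmb10* fell. *Psmb9* (LMP2), which replaces *Psmb6*, was 2.56, 2.45 and 2.53 in WT and 3.76, 3.60 and 3.65 in IG27. The groups were 1.04 apart, and it rose by 1.16 ± 0.06 (adjusted p = 1.13e-05), or 2.23-fold. *Psmb8* (LMP7), which replaces *Psmb5*, was 3.51, 3.53 and 3.52 in WT and 3.77, 3.73 and 3.69 in IG27. These dishes also separated, but the rise was only 0.21 ± 0.04 (adjusted p = 0.00581), or 1.16-fold, and within the slide row it was 0.202 (adjusted p = 0.0508). *Psmb10* (MECL-1), which replaces *Psmb7*, was 4.84, 4.98 and 5.01 in WT and 4.51, 4.30 and 4.36 in IG27. It fell by 0.55 on the log2 scale, with an SE of 0.08 (adjusted p = 9.34e-04), and was 1.47-fold higher in WT. *Psmb10* lies on chromosome 8, whose median difference was -0.67, and the part of that shift in its fall was not tested. Differences between the subunits were not tested against each other. The 95% interval of *Psmb9* was 1.01 to 1.31, that of *Psmb8* 0.10 to 0.32 and that of *Psmb10* -0.75 to -0.36.

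*Nlrc5*, the transactivator, was -1.19, -1.18 and -1.37 in WT and -0.58, -0.64 and -0.62 in IG27, with all IG27 dishes higher. The rise was 0.63 ± 0.07 (adjusted p = 2.38e-04), or 1.55-fold. A much dimmer *Nlrc5* probe read -4.33, -4.10 and -4.31 in WT and -4.12, -4.29 and -4.34 in IG27. It gave a difference of -0.004 ± 0.091 with an interval of -0.23 to 0.22, so the probes of this gene disagree too, and their mean rose by 0.315.

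**Figure D3:**
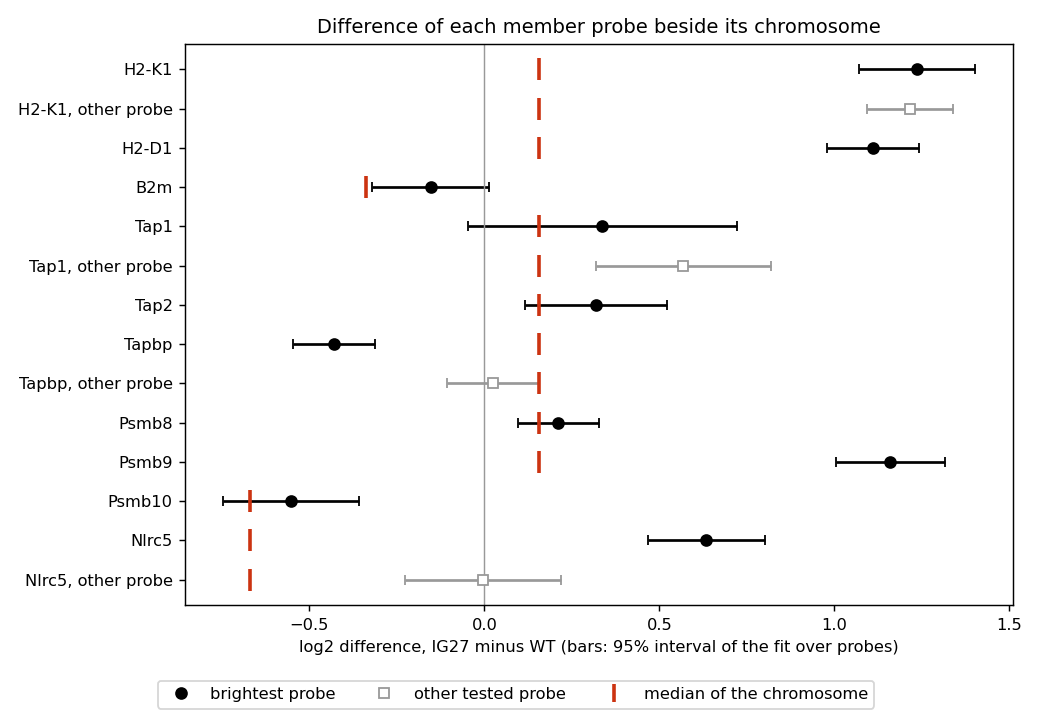
Log2 difference, IG27 minus WT, of every tested probe of the members, with 95% intervals from the limma fit over probes; red ticks are the median difference of all tested genes on the same chromosome. The probes of H2-K1 coincide, those of Tapbp and Nlrc5 do not, and Psmb10 lies close to the median of chromosome 8.

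The members lie on 3 chromosomes whose genes shifted as a whole in these arrays. *H2-K1*, *H2-D1*, *Tap1*, *Tap2*, *Tapbp*, *Psmb8* and *Psmb9* are in the MHC on chromosome 17, where the median difference of the 764 tested genes was 0.16. *B2m* is on chromosome 2, with a median of -0.34 over 1149 genes. *Psmb10* and *Nlrc5* are on chromosome 8, with a median of -0.67 over 768 genes. Relative to its chromosome, *Nlrc5* stood 1.303 higher, *H2-K1* 1.08, *Psmb9* 1.01 and *H2-D1* 0.96. *Psmb10* was 0.12 above its chromosome median, *B2m* 0.18 above, and *Tap1*, *Tap2* and *Psmb8* between 0.06 and 0.18 above. *Tapbp* was the only member below, by -0.58. These values are of the brightest probe of each gene, and the dimmer tested probes of *Nlrc5* and *Tapbp* differed by only -0.004 and 0.02 between the groups. The part of these chromosome shifts in the members' results was not tested.

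The other class I heavy chains of the mouse MHC, which include the non-classical Q, T and M genes, were mostly higher in IG27 cells. Of 31 genes listed, 26 could be named on the array and 15 were tested. Of these, 11 rose, 1 fell and 3 did not pass, with a median difference of 1.12. Many are near-identical paralogs whose probes may read each other's RNA, so these are not counts of separate genes. Among all tested genes 30.5% were higher and 40.0% lower, with a median of -0.07. With probes required above background on every complete array, 9 of the listed genes rose and 1 fell. *H2-M3*, which presents formylated bacterial peptides, was well above background on only 1 of 3 WT arrays and on both IG27 arrays with a call. *H2-M3* therefore entered the test only through the group where it was bright. It was -6.71, -7.77 and -5.96 in WT and -1.50, -1.48 and -1.55 in IG27, a difference of 5.30 ± 0.43 (adjusted p = 7.01e-05) that came to 2.53 under normexp background correction, which adds a fixed offset to every signal. *H2-T24* rose by 2.65 ± 0.06 (adjusted p = 3.11e-07), and *H2-K2*, a relative of *H2-K1*, by 1.26 ± 0.05 (adjusted p = 3.31e-06). *H2-M11* was not well above background in any WT array and was at least 1.84-fold higher in IG27 (adjusted p = 7.32e-04). It entered the test only through the IG27 arrays, and its difference under normexp was 0.628 on the log2 scale, below that bound. The only tested gene of the list that fell was *H2-T3*, by 0.28 on the log2 scale.

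Many of these heavy chains shared nearly one value. Together with *H2-K1* and *H2-D1*, 9 of the 17 tested heavy-chain genes differed by between 1.03 and 1.26, a band that 2.52% of all tested genes (375) fell into when it was taken as 1 to 1.3 units. The band was set after the values were seen. The mouse class I genes are near-identical paralogs, and RNA of one gene may be read by the probe of another, so the 9 values cannot be taken as separate genes. C3H/HeN mice also carry the k haplotype of the MHC, whereas the RefSeq transcripts that name the probes are of the b haplotype of C57BL/6. How far each probe matched the k alleles was not tested.

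Class I-like molecules outside the classical set, which share the fold but present lipids, bind NK cell receptors or carry other cargo, moved in both directions. Of 9 tested genes of 17 listed, 6 rose, 1 fell and 2 did not pass, with a median of 0.995. Among all tested genes 30.5% were higher and 40.0% lower. Several of the 9 entered the test only through the group where they were bright: with probes required above background on every complete array, 3 rose and 0 fell. *Cd1d1*, which presents lipids to NKT cells, was not well above background in any WT array and was at least 12.5-fold higher in IG27 (adjusted p = 3.19e-05). *Raet1e*, an NKG2D ligand gene, rose by 3.11 ± 0.08 on the log2 scale. *Ulbp1*, another, was above background on 1 of 3 WT arrays and entered the test only through the IG27 arrays. Its difference was 4.61 ± 0.18 and came to 2.71 under normexp. *Procr*, the endothelial protein C receptor, was the gene that fell, at least 5.25-fold lower in IG27 (adjusted p = 1.28e-04). These bounds hold for the scaling used here, and under normexp the log2 differences were 2.13 for *Cd1d1* and -1.47 for *Procr*, smaller than the bounds.

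Of 18 tested genes that help peptide loading and trimming, 4 rose, 7 fell and 7 did not pass, with a median of -0.01, beside 30.5% higher and 40.0% lower among all tested genes. The 7 lower genes became 4 without WT dish 3 or without IG27 dish 2. *Erap1*, the aminopeptidase that trims peptides in the endoplasmic reticulum, was -0.85, -0.89 and -0.80 in WT and -2.02, -1.85 and -1.98 in IG27, so every IG27 dish was lower. It fell by 1.11 ± 0.06 (adjusted p = 1.32e-05). *Calr* and *Pdia3*, components of the loading complex, fell by 0.68 ± 0.06 and 0.72 ± 0.06. *Calr* lies on chromosome 8, whose median difference was -0.67, and *Pdia3* on chromosome 2, with -0.34. The part of these chromosome shifts in their falls was not tested. *Canx*, the chaperone of the free heavy chain, was -0.23 ± 0.08 (adjusted p = 0.0461) and lost its call in 10 of 19 alternative settings, among them those that left out WT dish 1 or 3 or any 1 IG27 dish (-0.248 to -0.155). The tapasin relative *Tapbpl* did not pass (-0.11 ± 0.09, adjusted p = 0.351). *Derl1*, a channel component of endoplasmic reticulum export, rose by 1.29 ± 0.08.

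Of the subunits that the immunoproteasome displaces, *Psmb5* and *Psmb7* fell and *Psmb6* did not pass. *Psmb5* was 5.26, 5.21 and 5.12 in WT and 4.13, 4.03 and 4.07 in IG27, a fall of 1.12 ± 0.06 (adjusted p = 1.00e-05). *Psmb7* was -0.67 ± 0.06 (adjusted p = 8.55e-05), and *Psmb6* -0.26 ± 0.12 (adjusted p = 0.0909). Set beside the inducible partners, *Psmb9* was higher while *Psmb6* did not pass, *Psmb8* was slightly higher while *Psmb5* was lower, and *Psmb10* and *Psmb7* were both lower. *Psme1*, the interferon-inducible alpha subunit of the PA28 activator, fell by 0.99 ± 0.05 (adjusted p = 6.48e-06). *Psme4*, the PA200 activator, rose by 0.31 ± 0.05. In all, 1 of 7 tested genes in this list rose and 3 fell, with a median of -0.26, where 40.0% of all tested genes were lower. No probe was named for *Psme2*.

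Among 31 regulators of class I transcription, all tested, 15 rose, 9 fell and 7 did not pass, with a median of 0.19, beside the 70.5% of all tested genes that passed. The Nlrc5 partners of the RFX complex all fell: *Rfx5* by 1.01 ± 0.13 (adjusted p = 6.36e-04), *Rfxap* by 0.71 ± 0.06 and *Rfxank* by 0.76 ± 0.05. *Rfx5* and *Rfxap* lie on chromosome 3, whose median difference was -0.31, and *Rfxank* on chromosome 8, with -0.67. The part of these chromosome shifts in the falls was not tested. The NF-Y and CREB/ATF partners went both ways: *Nfya* (0.40) and *Atf1* (0.56) rose, *Nfyb* (-0.36) and *Creb1* (-0.30) fell, and *Nfyc* did not pass. *Rfx5* was -1.69, -1.75 and -1.59 in WT and -2.74, -2.41 and -2.92 in IG27. *Irf1*, an activator of class I and *Tap1* promoters, rose by 0.28 ± 0.07 (adjusted p = 0.00884). Within the slide row it did not pass (0.201, adjusted p = 0.102). *Irf8* had the largest difference in the list, with -2.07, -2.03 and -2.01 in WT and 0.08, 0.02 and 0.05 in IG27, a rise of 2.09 ± 0.05. The noncanonical NF-kB subunit *Relb* rose by 1.26 ± 0.06 and the cytokine signalling inhibitor *Socs3* by 1.96 ± 0.05, whereas *Irf9*, the DNA-binding part of the type I interferon complex, fell by 1.26 ± 0.05.

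Most of the interferon-stimulated genes listed, which share activators with the class I genes, were higher in IG27 cells. Of 29 tested, 22 rose, 2 fell and 5 did not pass, with a median of 0.83. Among all tested genes 30.5% were higher and 40.0% lower, with a median of -0.07. With probes required above background on every complete array, 20 of the listed genes rose and 2 fell. *Gbp4*, a guanylate-binding protein gene not well above background in any WT array, was at least 25.9-fold higher in IG27. *Oasl1*, *Iigp1* and *Oas2*, antiviral genes, rose by 4.59 ± 0.48, 4.53 ± 0.12 and 3.70 ± 0.06. Genes of the class II pathway, which presents peptides from endosomes, did not move one way: of 6 tested genes of 13 listed, 3 rose and 3 fell. These counts stand beside the same shares of all tested genes. With probes required above background on every complete array, 2 rose and 2 fell. *Cd74*, the invariant chain, rose by 3.15 ± 0.11 and *H2-Oa* was at least 2.56-fold higher, whereas *H2-DMb1* fell by 2.17 ± 0.08 and *H2-Eb1* was at least 9.08-fold lower. *Gbp4* and *H2-Oa* entered the test only through the IG27 arrays, and *H2-Eb1* only through the WT arrays. Under normexp the log2 differences were 2.80 for *Gbp4*, 0.577 for *H2-Oa* and -1.85 for *H2-Eb1*, smaller than their bounds. *Ciita*, the class II counterpart of *Nlrc5*, was not well above background on any array.

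**Figure D4:**
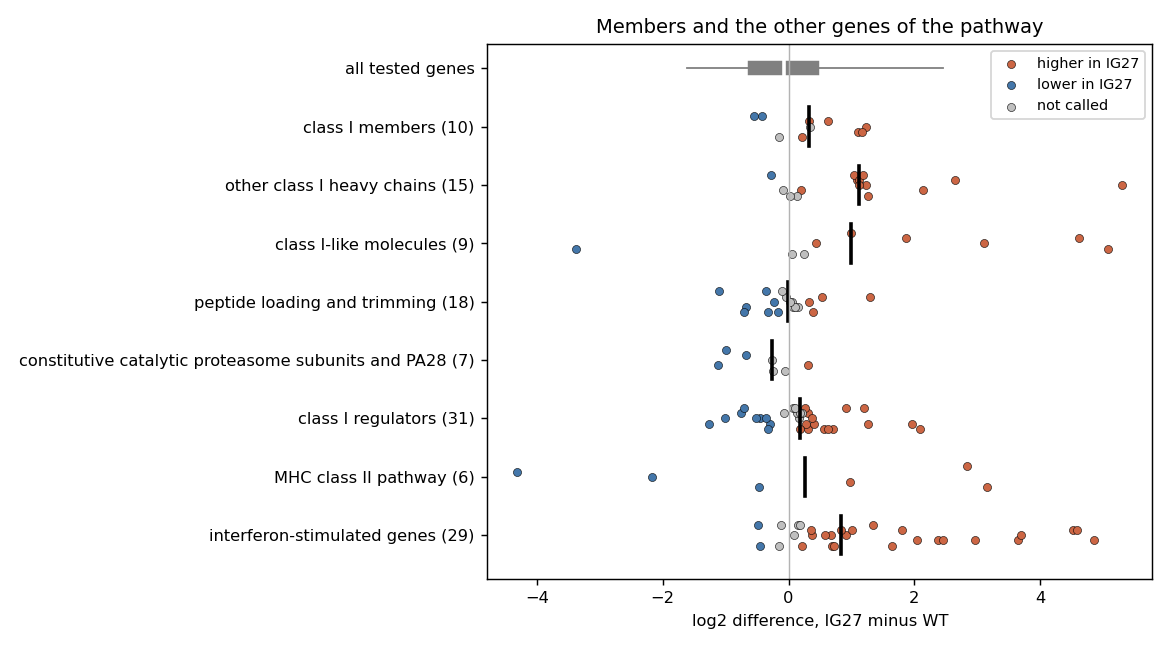
Log2 difference, IG27 minus WT, of the members and of each list of related genes; points are tested genes coloured by the limma call, black lines are list medians, and the top bar spans the 5th to 95th percentile of all tested genes, with the quartiles as the thick part and the median as the gap. Heavy chains cluster near 1, loading helpers centre near 0 and interferon-stimulated genes reach above 4.

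All 18 glial marker genes were well above background on at least 1 array, 15 of them on every array with a call. Their summed level, the log2 of the added linear signals, was 8.58 to 8.63 in WT and 8.18 to 8.25 in IG27. Single markers moved both ways: 7 rose, among them *S100b* by 4.93 and *Pdgfra* by 2.36, and 7 fell, among them *Gfap* by 1.07 and *Cnp* by 1.52. The largest rise was that of *Slc1a3* (6.55), in the test only through the IG27 arrays, and the largest fall that of *Aldh1l1* (-1.72). All marker counts given here stand beside 30.5% higher and 40.0% lower among all tested genes. Of 15 microglia and leukocyte markers, which belong to cells rich in class I, 10 were above background on some array, and the summed level was 4.01 to 4.09 in WT and 3.98 to 4.03 in IG27. The 5 not above background on any array were *Ptprc*, *Cx3cr1*, *Adgre1*, *C1qa* and *Laptm5*. *Itgam*, *Csf1r*, *Tmem119*, *P2ry12* and *Cd68* were above background on every complete array, with differences of 0.20, -1.57, -0.76, 0.49 and 0.31. Of 8 endothelial markers, *Cdh5*, *Tek*, *Tie1*, *Cldn5* and *Emcn* were below background throughout. Of the 3 tested, *Pecam1*, the only 1 above background on every complete array, was lower (-0.27). *Kdr* and *Erg* rose, but neither was well above background in any WT array, so both entered the test only through the IG27 arrays. The summed level of the endothelial markers was -2.45 to -2.27 in WT and 1.43 to 1.47 in IG27. Such a sum is weighted to the brightest probe, so it does not describe the markers as a set. In IG27 the mean was 1.305 for *Kdr*, -2.843 for *Pecam1* and -3.654 for *Erg*. Among the microglia and leukocyte markers the brightest was *Itgam*, with a mean of 3.313 in WT and 3.517 in IG27. The 8 fibroblast markers summed to 7.29 to 7.33 in WT and 7.17 to 7.25 in IG27. Of the 5 that were tested, 3 rose, among them *Col3a1* by 1.57, and 2 fell, *Col1a1* by 0.92 and *Pdgfrb* by 1.16. The part of these marker changes in the class I differences was not tested, and in bulk RNA fewer cells of a type cannot be told apart from less RNA per cell.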

How the data were processed

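The authors deposited single-colour scanner output of Agilent Feature Extraction (version 10.7.3.1 per the file headers, 9.1 in the submitters' processing notes), whose processed intensity is background-subtracted, and a value table of the same linear intensities. The intensities were scaled here as log2 minus the 75th percentile of each array, with outlier spots left out and the brightest probe kept per gene. The scanner file of IG27 dish 2 stops after 285 complete spots of 62976, so its values came from that deposited table, which equals the scanner values of the other arrays for single-spot probes within 1e-04, with the columns of WT dishes 2 and 3 exchanged. That array has no detection call. The labels of the scanner files were used for the WT dishes. Probes were named through RefSeq accessions with a GRCm38.p6 gene table (32989 of 56605 probes). A gene entered the test if, in WT or in IG27 cells, all complete arrays detected its probe above background. The test was limma 3.58.1 in R 4.3.3 (two-sided, Benjamini-Hochberg over all 14894 genes, threshold 0.05) on all 6 arrays. A bound ("at least") compares the brighter group with the lowest signal well above background on each array. The script was tested on simulated data. Replicate numbers name dishes, and the number of arrays limits the precision.

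The members and gene lists were chosen with earlier results of these data known. *H2-T3*, *Rfxap*, *Rfxank*, *Nfya*, *Nfyb*, *Nfyc*, *Creb1*, *Atf1*, *H3f3a* and the cell type markers were chosen for naming after their values were seen. Besides these and the members, the text names by rule up to 4 genes of each list with the largest differences among those that passed. The rule adds a fixed set of regulators, proteasome subunits and loading factors. A gene that this rule names is not reported here. Alternatives covered the data source, scaling, background correction, filters, probe choice, moderation, threshold, blocks and each array left out.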

Additional observations from a re-analysis of the deposited data

How the results depend on the processing

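In 19 alternative settings no member reversed, and *H2-K1*, *H2-D1*, *Tapbp*, *Psmb9*, *Psmb10* and *Nlrc5* stayed past the threshold in all 19. No setting used the dimmer probe of *Tapbp* or *Nlrc5* alone, which gave differences of 0.02 and -0.004. *Tap1* passed under quantile normalization (0.458), with the percentile taken over detected probes (0.467), as the mean of its probes (0.453) and without IG27 replicate 3 (0.51). With the slide row as a block, in which IG27 dishes are compared with WT dish 2 alone, *Tap2* (0.314, adjusted p = 0.0854), *Psmb8* (0.202, adjusted p = 0.0508) and *Irf1* (0.201) were lost. The percentile over detected probes moved the median of all genes from -0.07 to 0.06 and the share of higher genes among those that passed from 43.3% to 53.1%, and *Tapbpl* reversed to 0.0241. Quantile normalization gave larger rises of *Tap2* (0.48) and *Psmb8* (0.377), and normexp a smaller *Tap1* difference (0.193). *B2m* came to -0.0791 under quantile normalization, -0.0226 with detected probes and -0.0313 with the slide row block, and did not pass in these. With dim probes kept, the genome-wide median came to 0.12. Same-numbered dishes deviated together with r of only 0.0116, 0.0396 and 0.0762, so the numbers were not taken as pairs. With the replicate block *Psmb6* passed (adjusted p = 0.0304), the lower proteasome genes rose from 3 to 5, and 10306 of all genes passed against 10498; no member's call changed.

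Of the list counts, the lower loading genes went from 7 to 4 on complete arrays only, under quantile normalization, with detected probes for the percentile and without a filter, and to 3 with the slide row block, which left 2 of the higher ones; they ranged from 4 to 7 with 1 array left out. The lower interferon-stimulated genes went from 2 to 1 on complete arrays, under quantile normalization, detected probes, normexp, no filter and the slide row block, and ranged from 1 to 2 with 1 array left out. With probes required above background on every array, class I-like genes were 3 higher and 0 lower, and with the slide row block 2 were lower. The lower heavy chain was lost (0) with detected probes and with the slide row block. The causes were not tested. Normexp used median foreground signals on complete arrays. The setting of complete arrays is the one without IG27 dish 2.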
